A study of Mus musculus with 18 samples.

Results

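Cytosines outside CpG dinucleotides were examined at 4 intervals in the genes Prkcq, Zbtb7b, Il6ra and Pax5 in developing mouse T cells. Members were all cytosines of either strand that are not followed by G in the mm9 sequence and that had at least 10 reads in all 18 libraries. This gave 359 of the 423 mouse cytosines with that coverage, the other 64 being CpG cytosines. They comprise 106 cytosines in CA, 141 in CC and 112 in CT context, or 100 in CHG and 259 in CHH context, where H is any base but G. Prkcq contributed 62 forward-strand and 20 reverse-strand cytosines, Zbtb7b 56 and 85, Il6ra 31 and 26, and Pax5 79 on the forward strand alone. Of the members, 2 had between 10 and 19 reads in their lowest library (14 and 18 reads) and mean shares of 0.333 and 1.30%. The 3 cytosines just outside the read minimum were covered in 17 libraries and had mean shares between 0 and 0.411%.

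The cells came from C57/BL6 female mice without a genetic change or treatment, aged 4 to 6 weeks, and were sorted by surface markers from independent mice for each of 3 isolations. Double positive (DP) thymocytes were CD4+ and CD8 int/hi, CD4 single positive (SP) thymocytes were CD4+, CD3 hi and CD24 int/lo, and naive CD4 T cells were CD62L hi, CD25- and CD44 lo cells of combined spleen and lymph nodes. Each DNA sample was split for bisulfite sequencing (BS-seq), in which 5-methylcytosine (5mC) and 5-hydroxymethylcytosine (5hmC) both read as C, and for oxidative bisulfite sequencing (oxBS-seq), in which only 5mC reads as C, giving 6 groups of 3 libraries. DNA from sorted cells carries no expression markers, so the identity of the cells was not checked here.

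Most methylation in mammals lies at CpG dinucleotides, where maintenance enzymes copy it after replication because the sequence is symmetric. Methylation outside CpG has no such copying at asymmetric sites and is laid down anew by DNMT3A and DNMT3B, which favour CA, with CAC the preferred site of DNMT3A. It is best known from neurons and embryonic stem cells and is rare in most differentiated cells, lymphocytes included. A low unconverted share at such a cytosine can come from a modified base, from incomplete bisulfite conversion or from a sequencing error, and the share alone does not tell these apart. The conversion is therefore usually judged on DNA that is known to be unmodified, here a fragment copied from phage lambda DNA with unmodified nucleotides and added before the DNA was split, of which 26 positions were covered.

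The intervals lie at chr2:11124412-11124609 in an intron of Prkcq, which encodes protein kinase C theta of the T-cell receptor pathway, at chr3:89184744-89185022 within a coding exon of Zbtb7b, which encodes the CD4 lineage factor ThPOK, at chr3:89679038-89679232 in an intron of Il6ra, the interleukin-6 receptor alpha chain, and at chr4:44628612-44628931 in an intron of Pax5, a B-cell transcription factor (mm9, annotation of GENCODE vM1). Of the 4 genes, Prkcq is on the forward strand and the others are on the reverse strand. The 31 bases around 5 of the cytosines described below are shown on the strand of the cytosine, with the cytosine and the 2 bases after it in capitals, because their triplets are what the comparisons below turn on. They are 4 CAC sites and 1 CAA site that lies next to an E-box (CACGTG).
Il6ra base 132, chr3:89679154-89679184, forward strand: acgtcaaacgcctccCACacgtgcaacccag
Il6ra base 139, chr3:89679161-89679191, reverse strand: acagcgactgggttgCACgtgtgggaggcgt
Il6ra base 140, chr3:89679162-89679192, forward strand: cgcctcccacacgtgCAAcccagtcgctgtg
Zbtb7b base 182, chr3:89184910-89184940, reverse strand: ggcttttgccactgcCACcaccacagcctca
Zbtb7b base 125, chr3:89184853-89184883, forward strand: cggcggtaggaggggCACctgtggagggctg

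Bases are counted from 1 at the first base of each interval.

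The unconverted share of a cytosine was its unconverted reads as a percentage of all its reads. The non-CpG cytosines held between 931078 and 5273446 read-outs per library, of which between 2244 and 14691 were unconverted, and the median cytosine had between 772 and 3375 reads. Coverage of a member in a library ranged from 14 to 126251 reads. Reads carry no molecular identifiers, so all intervals, floors and noise estimates cover counting error only. At a Pax5 cytosine with 14 reads, 3 counts amount to a share of 21.4%. The forward strand of Il6ra was read by only 70 to 73 reads per cytosine in naive CD4 BS library 1, against medians between 38890 and 126065 in the other libraries.

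Libraries of one group differed by little more than sampling noise. Over the 18 pairs of libraries of one group the chi-square per degree of freedom at non-CpG cytosines was 1.16 (2147 degrees of freedom), where sampling noise alone gives about 1, and 12 of the 18 pairs had a chi-square p of 0.05 or more. Library 1 against libraries 2 and 3 gave 1.24, and library 2 against 3 gave 1.03. The highest pair was CD4 SP BS libraries 1 and 3, at 1.61 (chi-square p = 1.39e-05). Between libraries of different groups the chi-square per degree of freedom was 21.3. At the CpG cytosines the same libraries of one group differed by 8.07 per degree of freedom. With many more unconverted reads there, that value is not comparable with 1.16 and does not show separate isolations. The libraries of a group were kept as 3 because the labels give 3 replicates. p-values over libraries or DNA samples therefore measure only the spread between libraries of a group, and tests were repeated with 1 value per group, where 6 values allow a smallest p of 0.03125. With 1 value per group the 3 stages within an assay cannot be tested.

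**Figure D1:**
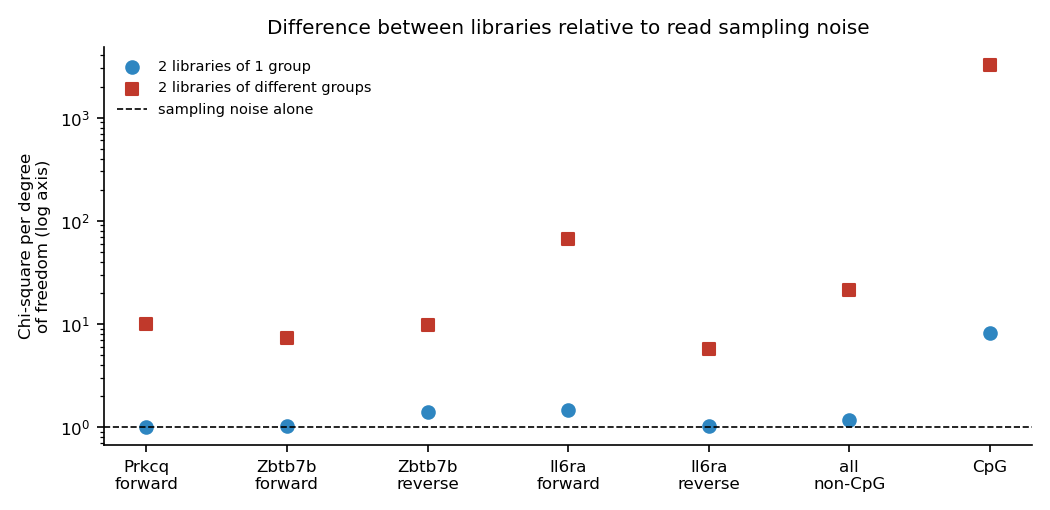
Chi-square per degree of freedom (log axis) between pairs of libraries of the same group (circles) and of different groups (squares), for cytosines with expected counts of at least 5 in both libraries, by interval and strand, over all non-CpG cytosines and over CpG cytosines. The plotted non-CpG values within groups lie between 1.01 and 1.44 and those between groups between 5.70 and 67.0. Pax5 is not plotted (0.876 within groups, 9 degrees of freedom), and no cytosine of the reverse strand of Prkcq had enough reads.

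The mean share of the 359 cytosines was low and nearly the same in all libraries, between 0.192 and 0.238%, with a mean of 0.215% ± 0.0128 (SD, n = 18 libraries). The lambda positions had 0.0493% ± 0.00769, between 0.0393 and 0.0682%, so the ranges did not overlap. The CpG cytosines of the same intervals had a mean share of 70.8%. The difference between non-CpG cytosines and lambda was 0.166 ± 0.00919 percentage points (SD, n = 9 DNA samples), positive in 9 of 9 DNA samples and 6 of 6 groups (exact sign-flip test, two-sided, p = 0.00391, with 1 value per group p = 0.03125, both the smallest possible). All 4 intervals behaved alike in this respect, with differences of 0.161 at Prkcq, 0.162 at Zbtb7b, 0.174 at Il6ra and 0.170 points at Pax5 (exact sign-flip test with Benjamini-Hochberg adjustment over 4, adjusted p = 0.00391 each). At Pax5 the difference of the medians, 0.0508 points, did not pass (adjusted p = 0.0820). The contexts of the lambda positions were not analysed here, so the comparison is not matched on sequence.

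Taken singly, 221 members (61.6%) were above lambda and 34 below it by an exact sign-flip test adjusted over all 423 cytosines, against 67.4% above lambda among the 423, a share that contains the CpG cytosines. Above lambda in all 6 groups were 187. With limma on arcsine-transformed shares 191 were called above. For these counts no share over all 423 cytosines was taken, so they are not set against one.

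Shares were lower near the ends of the covered stretch of each strand. Within 25 bases of the first or last covered cytosine of their strand lay 91 members with a mean share of 0.0794% ± 0.0158 (SD, n = 18 libraries), whereas the 268 further inside had 0.261% ± 0.0195, with ranges over libraries of 0.0618 to 0.114% and 0.236 to 0.295%. All 34 members below lambda were among the 91, and 16 of the 91 (17.6%) were above lambda, against 205 of the 268 (76.5%). On the forward strand of Il6ra, 11 of 13 such cytosines lay under the lambda mean, and their median was 0.0121% against 0.228% for the 18 further inside. Bases that a read takes over from a PCR primer do not report the state of the sampled DNA, and the positions of the primers of these intervals are not given in the sources used here, so their part in these low shares was not tested. Of the lambda positions, 9 within 25 bases of an end had a mean of 0.0392% and the other 17 had 0.0547%. Without the 91 members the difference from lambda was 0.212 points.

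**Figure D2:**
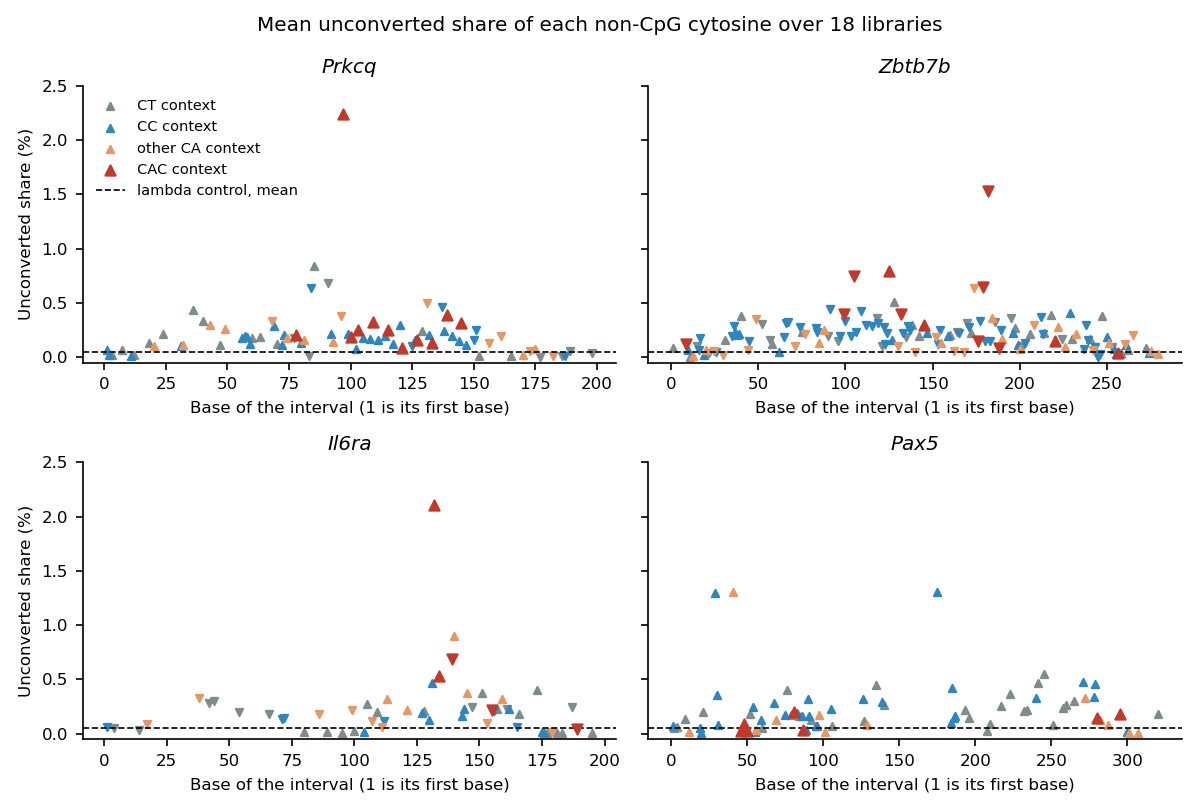
Mean unconverted share over 18 libraries (y, percent) of each non-CpG cytosine by its base within the interval (x), with forward-strand cytosines as upward and reverse-strand cytosines as downward triangles, coloured by context; the dashed line is the mean of the lambda positions. Shares fall towards the ends, and the 3 highest cytosines, between 1.53 and 2.24%, are in CAC context.

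CAC was the context that stood out among the members. The 35 CAC cytosines had a mean share of 0.405% ± 0.0775 (SD, n = 18 libraries), the 71 other CA cytosines 0.184% ± 0.0390, CC 0.203% ± 0.0266 and CT 0.190% ± 0.0238. The lowest library had 0.276% for CAC and the highest 0.260% for other CA, so these groups of values did not overlap. The difference between CAC and other CA was 0.221 ± 0.0450 points (n = 9 DNA samples), positive in 9 of 9 DNA samples and 6 of 6 groups (exact sign-flip test adjusted over 6 sequence comparisons, adjusted p = 0.0117, with 1 value per group adjusted p = 0.0625 from a p of 0.03125). It was 0.215 points without the strand ends and between 0.176 and 0.299 without any one interval. CAC was not high in every interval. The CAC cytosines of Pax5 had mean shares between 0.0235 and 0.201%, all under the mean of 0.219% over the Pax5 members (median 0.164%).

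The size of the difference depended on a few cytosines. Of the 19 members over 0.5%, 8 were CAC, which is 22.9% of the CAC cytosines, compared with 5.63% of other CA, 2.13% of CC and 3.57% of CT. Without any member over 0.5%, in CAC and other CA alike, the difference was 0.0360 points, and without the 10 highest members it was 0.0677 points (exact sign-flip tests, adjusted p = 0.00781 and 0.0117). The medians, 0.203% for CAC and 0.127% for other CA, lay closer together than the means, with a difference of 0.0577 points in the medians of a library (adjusted p = 0.00781, exact sign-flip). The 8 were at Prkcq base 97, at Il6ra bases 132, 134 and 139 and at Zbtb7b bases 105, 125, 179 and 182. No CAC cytosine of Pax5 was among them.

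**Figure D3:**
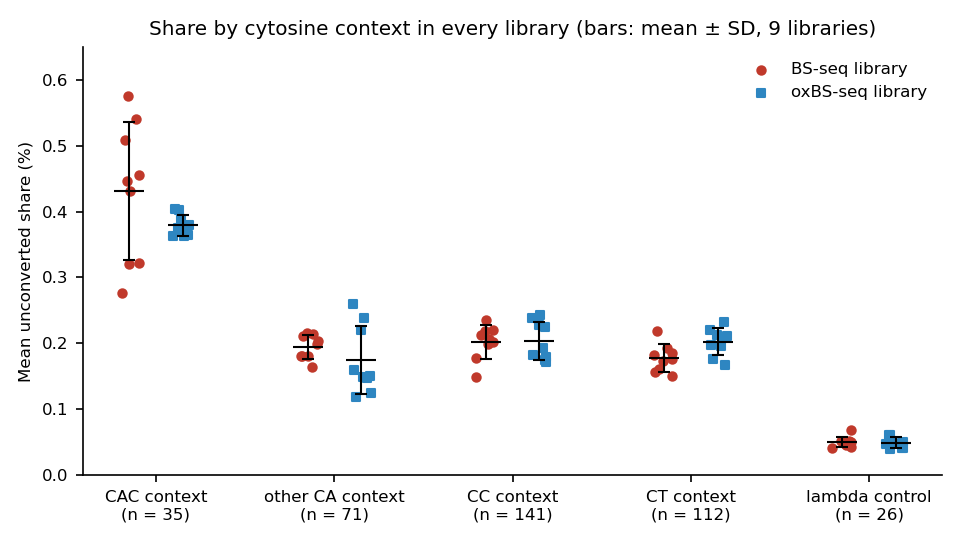
Mean unconverted share (y, percent) of CAC, other CA, CC and CT cytosines and of the lambda positions (x, n is the number of cytosines) in each BS-seq (circles) and oxBS-seq library (squares), with mean ± SD over 9 libraries. CAC lies between 0.276 and 0.576%, above the other contexts, and lambda lies at 0.0682% or lower.

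Without CAC the remaining contexts had no fixed order. CA exceeded CC by 0.0539 ± 0.0462 points (7 of 9 DNA samples, adjusted p = 0.0352) and CT by 0.0673 ± 0.0399 points (8 of 9, adjusted p = 0.0156, both exact sign-flip tests), but without CAC the differences were -0.0191 and -0.00565 points (adjusted p = 0.384 and 0.668). CC and CT differed by 0.0134 ± 0.0292 points and CHG and CHH by -0.0147 ± 0.0381 points, neither past the test (adjusted p = 0.262 each). CAA had 0.205%, CAG 0.200% and CAT 0.131%.

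Cytosines near a CpG, at most 5 bases from its C or G, had a higher mean share than those further away, 0.282% ± 0.0364 for 137 against 0.173% ± 0.0188 for 222 (SD, n = 18 libraries). The difference was 0.109 ± 0.0464 points, positive in 9 of 9 DNA samples (exact sign-flip test, adjusted p = 0.0117, with 1 value per group 0.0625). Strand ends were unevenly spread over both classes, with 9 of the near and 82 of the distant cytosines within 25 bases of an end. Further inside, the difference fell to 0.0542 ± 0.0522 points, positive in 7 of 9 DNA samples and 4 of 6 groups (exact sign-flip test, adjusted p = 0.0410 over DNA samples, p = 0.125 over groups). There the share did not decline steadily with distance, since cytosines 21 or more bases away had 0.292% and those next to a CpG 0.247%.

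**Figure D4:**
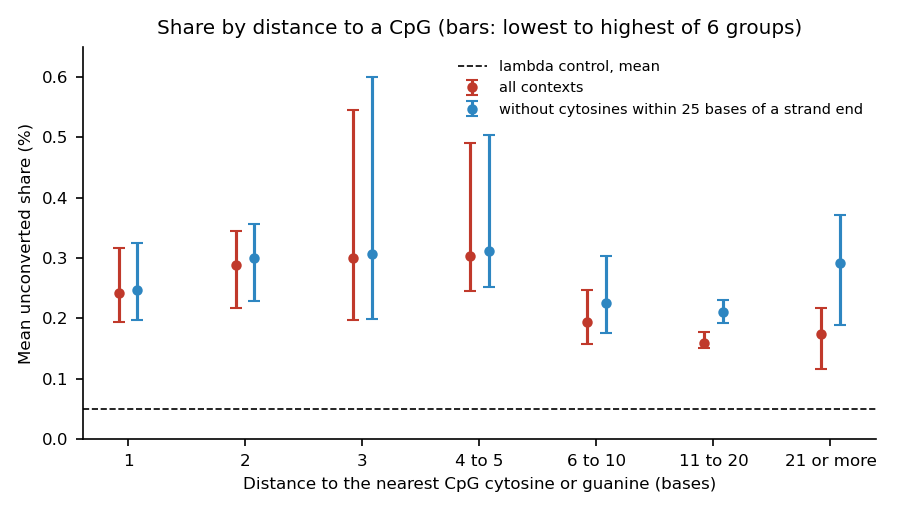
Mean unconverted share (y, percent) by distance to the nearest CpG in bases (x), for all non-CpG cytosines and without those within 25 bases of a strand end; points are means of 18 libraries, bars run from the lowest to the highest of 6 group means, and the dashed line is the lambda mean. The decline beyond 5 bases in all cytosines is weaker without the strand ends, where the farthest class has 0.292%.

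The highest cytosine of all was in Prkcq at base 97 (chr2:11124508), in CAC context. Its BS share in libraries 1 to 3 was 2.17, 2.39 and 2.12% for DP, 2.40, 2.26 and 2.43% for CD4 SP and 4.89, 4.91 and 4.88% for naive CD4 cells. Its oxBS share was 1.16, 1.27 and 1.12% for DP, 0.247, 0.131 and 0.278% for CD4 SP and 2.74, 2.41 and 2.60% for naive CD4 cells. The naive libraries were highest in both assays and every BS library of a stage was above its oxBS libraries. The change from DP to naive cells, averaged over both assays, was 2.03 points at Prkcq_11124508. The test over all 3 stages passed there (exact permutation F test, adjusted over 423 cytosines, adjusted p = 0.0187). The next CAC cytosines of the same strand, Prkcq_11124511 and Prkcq_11124514, had mean shares of 0.186 and 0.255%.

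In Il6ra the E-box at chr3:89679171-89679176, a site bound by basic helix-loop-helix factors, lies among a cluster of high non-CpG cytosines. The CAC at base 132 (chr3:89679169), 2 bases before the box, read 1.31, 1.45 and 1.33% in BS and 3.18, 3.08 and 3.34% in oxBS of DP cells. CD4 SP cells gave 3.37, 3.32 and 3.34% in BS and 1.31, 1.22 and 1.32% in oxBS. In naive cells it read 1.65, 1.65 and 1.61% in oxBS and 0.707 and 0.659% in BS libraries 2 and 3. Naive BS library 1 read 4.11%, which is 3 of 73 reads (95% exact Clopper-Pearson interval 0.856 to 11.5%). BS was thus lower than oxBS in DP and higher in CD4 SP cells. The stage test over both assays was not passed (adjusted p = 0.640, exact permutation F test). It includes the value from 73 reads, so it does not show that the stages are alike at this site. The CAA at base 140 (chr3:89679177), just after the box, read 1.06, 1.04 and 1.07% in DP BS and 1.70, 1.65 and 1.64% in CD4 SP BS, and 0, 0.342 and 0.316% in naive BS. That 0 again rests on 73 reads. The oxBS libraries had 1.28, 1.33 and 1.34% for DP, 0.452, 0.454 and 0.463% for CD4 SP and 0.675, 0.752 and 0.693% for naive cells. The change from DP to naive at this CAA was -0.723 points, and its test over all 3 stages passed (adjusted p = 0.0187, exact permutation F test).

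Within the box the CAC of the forward strand (base 134) had a mean share of 0.529% and that of the reverse strand (base 139, chr3:89679176) 0.691%. The reverse-strand CAC read 1.03, 0.805 and 0.877% in DP BS, 0.962, 1.10 and 1.41% in CD4 SP BS and 1.13, 1.45 and 1.57% in naive BS. Its oxBS libraries read 0.320, 0.335 and 0.326% for DP, 0.167, 0 and 0.0881% for CD4 SP and 0.301, 0.226 and 0.343% for naive cells. All 9 BS libraries were above all 9 oxBS libraries, while the stage test was not passed (adjusted p = 0.159, exact permutation).

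In Zbtb7b the highest cytosine was a CAC on the reverse strand at base 182 (chr3:89184925). DP libraries read between 0 and 0.192% in both assays. CD4 SP libraries read 2.26, 1.99 and 2.80% in BS and 5.28, 4.33 and 5.12% in oxBS, and naive libraries 1.79, 1.66 and 1.42% in BS and 0.134, 0.0734 and 0.113% in oxBS. The stages differed over both assays (change from DP to naive 0.762 points, adjusted p = 0.0187, exact permutation), and naive libraries lay above all DP libraries in BS but overlapped them in oxBS. A CAC 3 bases away (base 179) read 3.29, 3.08 and 3.21% in naive oxBS and no more than 0.306% in any other library. A CAG at base 174 (chr3:89184917) read 1.23, 1.87 and 1.63% in CD4 SP BS and 1.46, 1.18 and 1.38% in naive BS, and no more than 0.767% elsewhere. A CTG at base 128 (chr3:89184871) read 2.03, 2.60 and 1.92% in naive oxBS and no more than 0.322% elsewhere. A CCA at base 100 (chr3:89184843) likewise was highest in naive oxBS with 0.742, 1.30 and 1.29%. The CAC cytosines at bases 125 and 105 had mean shares of 0.791 and 0.746% and did not pass the stage test (adjusted p = 0.520 and 0.446). At Zbtb7b base 105 library 1 was the lowest of its 3 in all 6 groups.

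**Figure D5:**
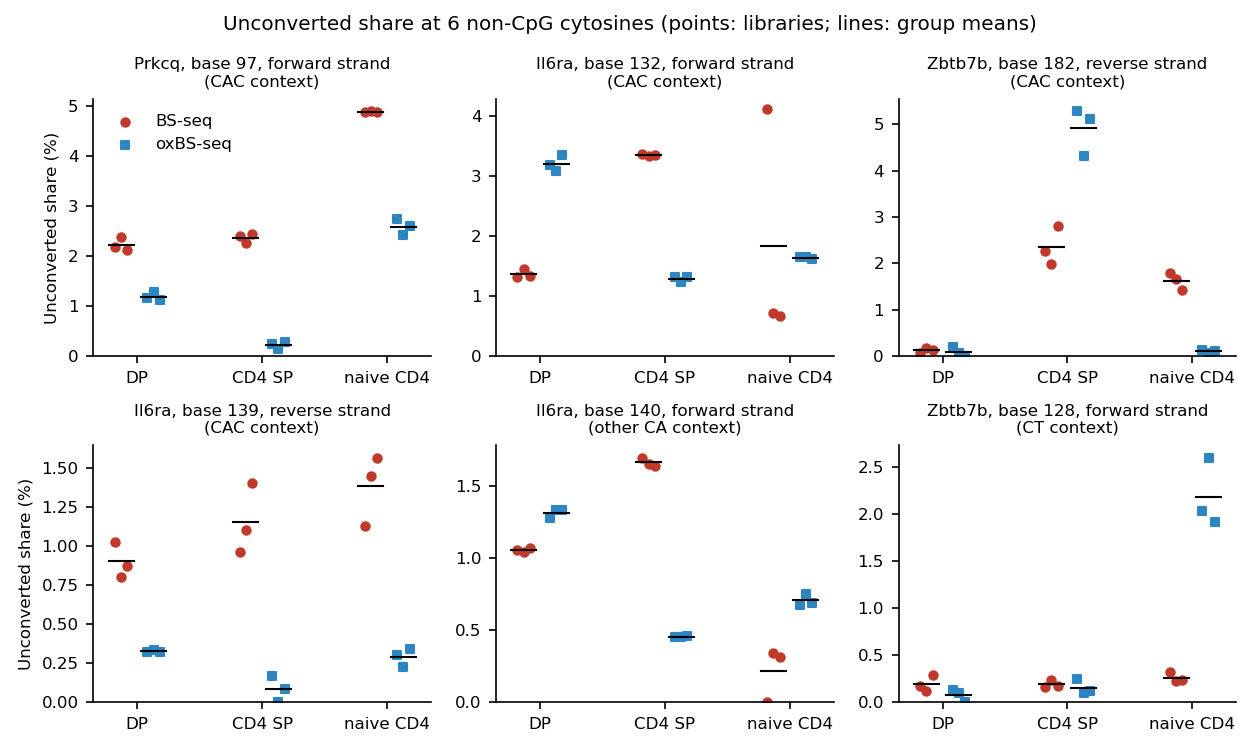
Unconverted share (y, percent) at 6 non-CpG cytosines in each library by stage (x) and assay, with a line at the mean of each group of 3. The 3 libraries of a group mostly lie close together, while groups differ from site to site without a shared order. Naive BS library 1, with 73 reads there, lies apart at Il6ra base 132 (4.11%) and at Il6ra_89679177 (0%).

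Of the 3 highest cytosines of Pax5, all at lower depth, 2 were high in a single group. A CAG at base 41 (chr4:44628652) read 6.85, 6.81 and 7.75% in CD4 SP oxBS and no more than 0.485% elsewhere. A CCC at base 29 (chr4:44628640) read 6.82, 8.17 and 4.84% in DP oxBS and no more than 0.858% elsewhere. Their lowest library had 44 reads, and over all 18 libraries they had 92 and 51 unconverted reads. A CCG at base 175 (chr4:44628786), with 14 reads in its lowest library, varied between 0 and 8.33% within CD4 SP oxBS. None of these passed the stage test (adjusted p = 0.0543, 0.0849 and 0.558, exact permutation).

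Of the 12 members with the highest mean share the 2 others were in Prkcq. A CTC at base 85 (chr2:11124496) read between 0.434 and 0.809% in the DP and CD4 SP libraries and between 1.09 and 1.52% in the naive libraries, which did not overlap, with a change of 0.735 points (adjusted p = 0.0691, exact permutation). A CTA on the reverse strand at base 91 (chr2:11124502) ranged from 0 to 4.00% at a lowest depth of 25 reads.

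Across stages 64 of the 359 members (17.8%) passed the exact permutation F test adjusted over 423 cytosines, where 28.6% of all 423 passed, CpG cytosines included. Among CAC cytosines 12 of 35 passed. From DP to naive cells 32 of the 64 rose and 32 fell, with a median size of 0.165 points, and 8 changed by more than 0.5 points. Of those that passed 62 lay further than 25 bases from a strand end. An unadjusted p under 0.05 was found at 125 members and limma called 85, counts for which no share over all 423 cytosines was taken. None was called when replicate number entered as a block. The block allows a smallest p of 0.0278, so most of the 423 would have to reach it for any to pass. Those 0 calls therefore do not weigh on the stage calls. Leaving out the libraries of 1 replicate gave 39 without CD4 SP replicate 3, 40 without naive CD4 replicate 2, 41 without DP replicate 3 and 42 without DP replicate 2 or CD4 SP replicate 2.

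The mean over all members in BS was 0.209, 0.219 and 0.218% for DP, CD4 SP and naive cells (exact permutation F test, p = 0.65), and in oxBS 0.210, 0.230 and 0.203% (p = 0.00714), a change from DP to naive of -0.00687 points. The direction of this change in oxBS turned with at least 100 reads (0.0303 points), with medians (0.0357 points) and without the 10 highest members (0.00443 points, p = 0.293, exact permutation). In the same order of stages, Prkcq had 0.242, 0.182 and 0.278% in BS, Zbtb7b 0.187, 0.245 and 0.205% and Il6ra 0.223, 0.292 and 0.184%. Il6ra in oxBS had 0.252, 0.185 and 0.204%. The tests of these 4 passed (exact permutation F test, adjusted p = 0.00714 over 8 tests), and Zbtb7b oxBS and both assays at Pax5 and Prkcq oxBS did not. With the replicate block, whose smallest p is 0.0278, the adjusted p of the 4 was 0.0556. Without the 10 highest members the change from DP to naive at Prkcq in BS, 0.0354 points, was -0.00349 points. Il6ra in BS, at -0.0396 points, was 0.000948 points where the 100-read minimum removed its forward strand.

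A share that is higher in BS than in oxBS is the pattern of 5hmC. By the read-outs given above, neither 5mC nor 5hmC makes a share higher in oxBS than in BS. BS minus oxBS was positive at 193 members and negative at 165. Zbtb7b_89184925 in CD4 SP cells had group means of 2.35% in BS and 4.91% in oxBS. Il6ra_89679169 in DP cells had 1.36% in BS and 3.20% in oxBS. The cause of these reversals, and whether a BS excess at a single cytosine is 5hmC, was not tested. Over all members the difference between BS and oxBS was 0.000863 ± 0.0198 points (SD, n = 9 pairs), positive in 6 of 9 pairs (exact sign-flip test, p = 0.930), and its test between stages was not passed (exact permutation F test, p = 0.339). Where every library had 100 or more reads (229 members) it was 0.0186 points (exact sign-flip test, p = 0.00391). These were 62 cytosines of Prkcq, 141 of Zbtb7b and 26 of Il6ra. They hold none of Pax5 or of the forward strand of Il6ra, but hold Prkcq_11124508 and Il6ra_89679176, described below. No single member passed the test adjusted over 423 cytosines (0.0% of the 423 passed). The smallest p of this exact sign-flip test, 0.00391, came to an adjusted p of 0.0612. No cytosine could therefore pass, and the 0 calls do not show equal shares in BS and oxBS. An unadjusted p under 0.05 was found at 45 members, limma called 12, and limma without the pairing 27. For these counts no share over all 423 cytosines was taken. BS was above oxBS in all 9 pairs at 5 members and below it in all 9 at 5, compared with 4.96 and 1.42% of the 423 cytosines. The largest of the first 5 were the CAC cytosines Prkcq_11124508, with 1.83 points, and Il6ra_89679176, with 0.915 points (adjusted p = 0.0612 each, exact sign-flip). The other 3 of the first 5 differed by at most 0.363 points.

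The 2 strands were compared where both were covered. Zbtb7b had a forward share of 0.182% and a reverse share of 0.231%, a difference of -0.0490 ± 0.0465 points (0 of 9 DNA samples positive, adjusted p = 0.0117, exact sign-flip over 3 intervals, with 1 value per group 0.0938). Without the strand ends it was -0.0314 points (adjusted p = 0.316). Il6ra had 0.263 and 0.175%, a difference of 0.0878 ± 0.0564 points (adjusted p = 0.0117, with 1 value per group 0.0938), and 0.00203 points without the 10 highest members. Prkcq differed by 0.000557 ± 0.0895 points (adjusted p = 0.980).

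For 142 members, those with 1000 or more reads in every library, the Pearson correlation of shares across cytosines was between 0.843 and 0.977 for 2 libraries of a group and between 0.132 and 0.753 for the means of 2 groups. Spearman's rho, on which the few high cytosines weigh less, was between 0.621 and 0.878 within groups and between 0.464 and 0.710 between groups, so these ranges overlapped. The change from DP to naive in BS and in oxBS correlated with r = 0.297 and Spearman's rho = 0.0880. These values are across cytosines of the same amplified intervals, which are not independent.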

How the data were processed

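Targeted BS-seq and oxBS-seq libraries of 3 T-cell stages were used, 3 per stage and assay. The submitters' processing notes name Bismark 0.7.12, Bowtie2 and mm9. The deposited tables give, per cytosine, the count of converted and unconverted reads and the percent of unconverted reads as the authors' caller wrote them. Replicates were not pooled. Shares were recomputed from the counts, and cytosines under 10 reads in any library were left out.

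A library's value for a set was the mean share of its cytosines. Stages were compared by an exact permutation F test over 1680 arrangements, and paired values by an exact two-sided sign-flip test over 9 DNA samples (BS and oxBS values of a DNA sample averaged, or subtracted). The p of a stage test belongs to all 3 stages, and a change from DP to naive printed beside it is a size only. p-values per cytosine were adjusted by the Benjamini-Hochberg method over 423 cytosines, and limma on arcsine square root shares was an alternative. The labels describe DNA divided for both assays, and a BS and an oxBS library of a stage were paired by replicate number. A DNA sample here means such a pair. Which libraries covered further intervals did not follow these numbers, so the pairing rests on the numbers alone. Deviations of paired libraries from their group means correlated with a mean r of 0.0017 (-0.273 to 0.141, over 0.1 in 2 of 9 pairs). Single cytosines were described by a rule: the 12 with the highest mean share and a median of at least 100 reads, and up to 6 past each of the stage and BS minus oxBS tests with the largest change, 15 in all. A few others are named that were chosen after their values were seen. Members, lists and tests were chosen with earlier results of these data known. The stage test of single cytosines was checked on simulated counts that held read sampling noise only. Planted rises were 1 and 2 points, against a median called change of 0.165 points. Software was Python 3.11.15, numpy 2.4.6, scipy 1.17.1, pandas 2.3.3, matplotlib 3.10.9, R 4.3.3 and limma 3.58.1. Some sequences are not reported here.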

Additional observations from a re-analysis of the deposited data

Results flagged for a closer look

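The difference between BS and oxBS changed with the stage at 5 of the 15 cytosines described singly (exact permutation F test adjusted over 423 cytosines, in which 76 of 359 members and 28.6% of all 423 passed). At Prkcq_11124508 the highest and lowest stage means of the difference lay 1.27 points apart (adjusted p = 0.0432), with BS above oxBS in all 3 stages. At Il6ra_89679169 they lay 3.90 points apart (adjusted p = 0.0499), from -1.84 points in DP to 2.06 points in CD4 SP cells. At Zbtb7b_89184925 the distance was 4.07 points (adjusted p = 0.0236), from -2.56 points in CD4 SP to 1.52 points in naive cells. Il6ra_89679177 had 1.70 points (adjusted p = 0.0236) and Zbtb7b_89184843 had 0.906 points (adjusted p = 0.0432).

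Non-CpG cytosines above lambda were also present in intervals that were not covered in all libraries. On chromosome 2 between 9781277 and 9781523, 33 such cytosines in 15 libraries had a mean share of 0.237% (0.183 to 0.298%) against 0.0485% at lambda. On chromosome 6 between 70685563 and 70694090, 86 cytosines in 6 libraries had a mean share of 2.25% (0.252 to 7.24%) against 0.0486% at lambda, at a median of 53 reads. CAC was not the highest context throughout there. On chromosome 6 the mean was 1.56% for 13 CAC, 2.22% for other CA, 2.17% for CC and 2.79% for CT cytosines, and on chromosome 2 the 3 CAC cytosines had a mean of 0.385% but a median of 0.0630%, against a median of 0.201% for other CA.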

How the results depend on the processing

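The difference between members and lambda kept its direction and passed under each alternative run, except that of the medians at Pax5 (0.0508 points). Alternatives that use 1 value per group, leave out strand ends, an interval or CAC cytosines were added after seeing the data. Depth limits Pax5 and the reverse strand of Prkcq most. The cause of the changes below was not tested. Stage values are naive minus DP, in points.

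With reads pooled over cytosines the stage change was -0.0311 in BS, that of CA -0.0509 in BS and -0.160 in oxBS, Prkcq oxBS 0.0117, Zbtb7b oxBS 0.0522, Pax5 oxBS -0.0887, BS minus oxBS by stage 0.00887 and CHG minus CHH -0.0193. With at least 100 reads the stage change was 0.0373 in BS and 0.0303 in oxBS, Prkcq oxBS 0.0128, Zbtb7b oxBS 0.0477, Il6ra BS 0.000948, BS minus oxBS 0.0186 and by stage 0.00699, CC minus CT -0.0192, CHG minus CHH -0.0351, and 8 cytosines were called for BS minus oxBS. With medians the stage change in oxBS was 0.0357, CA 0.0168 in BS and 0.0046 in oxBS, Prkcq 0.0533 and 0.0137, Zbtb7b BS -0.000603, Il6ra -0.0726 and -0.029, Pax5 -0.0224 and 0.0756, BS minus oxBS by stage -0.0322, CA minus CC -0.0432, CA minus CT -0.0136, CC minus CT 0.0296, and forward minus reverse 0.0966 at Prkcq and 0.0216 at Il6ra. Without the 10 highest the stage change in oxBS was 0.00443, CA oxBS 0.0139, Prkcq -0.00349 and -0.0361, Zbtb7b oxBS 0.0394, BS minus oxBS 0.0106 and by stage -0.0029, CA minus CC -0.00947, CA minus CT -0.00598, and forward minus reverse -0.0438 at Prkcq and 0.00203 at Il6ra.

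Without 25 bases at the ends of an interval Zbtb7b oxBS was 0.0585, Pax5 oxBS -0.096, and forward minus reverse -0.0722 at Prkcq and -0.0112 at Zbtb7b. Without strand ends BS minus oxBS was -0.000767, CC minus CT -0.00894, Zbtb7b oxBS 0.0622, Pax5 oxBS -0.096, and forward minus reverse -0.0216 at Prkcq and -0.0314 at Zbtb7b. Without CAC, CA minus CC was -0.0191, CA minus CT -0.00565 and CHG minus CHH 0.0143, and removing members over 0.5% from CAC alone gave CAC minus other CA as -0.00304, a value that the removal from 1 class lowers by construction and that is no test. With such members removed from both classes it was 0.0360, and without the 10 highest 0.0677. Without Prkcq CA minus CC was 0.0396, CC minus CT 0.0175 and CHG minus CHH 0.00331, without Il6ra CA minus CC 0.0219 and CA minus CT 0.0329, and without Pax5 CHG minus CHH -0.0418. With 1 value per group, which has fewer values, CA minus CC (0.0539), CA minus CT (0.0673), CAC minus other CA (0.221), near minus far (0.109) and forward minus reverse at Zbtb7b (-0.0490) and Il6ra (0.0878) no longer passed.

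Leaving out a library pair gave Pax5 BS -0.0110 to 0.0158, Pax5 oxBS -0.0966 to -0.0600, Zbtb7b oxBS 0.0409 to 0.0557, the stage change in BS 0.00729 to 0.0112 (p = 0.00357 by exact permutation without CD4 SP replicate 1), BS minus oxBS -0.00155 to 0.00673, CA minus CC 0.0465 to 0.0621, forward minus reverse at Prkcq -0.0116 to 0.0174, and 39 to 66 cytosines called by stage (39 without CD4 SP library 3, 40 without naive library 2, 41 without DP library 3, 42 without DP library 2 or CD4 SP library 2). With the replicate number as a block, whose smallest p is 0.0278, CA in BS (0.0479) and oxBS (0.0180), Prkcq BS (0.0354), Zbtb7b BS (0.0178) and Il6ra in BS (-0.0396) and oxBS (-0.0477) no longer passed, and 0 cytosines were called by stage. Without the pairing, limma called 27 cytosines for BS minus oxBS, and limma with it 12.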
